A study of Mus musculus with 20 samples.

Results

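The matrix metalloproteinases Mmp2, Mmp3, Mmp9, Mmp11, Mmp13, Mmp14 and Mmp15 and the tissue inhibitors Timp1, Timp2 and Timp3 were followed across spontaneous mouse breast tumors. These 10 genes were taken by name from a table of 43346 genes. RNA was sequenced from 20 breast tumors, 1 from each of 20 female F1 mice of the cross between BALB/c-neuT and FVB/J. Every mouse carried neuT, an activated rat HER2/neu oncogene under the MMTV promoter, which drives expression mainly in mammary epithelium. Tumors were collected once any tumor of a mouse had reached a set area, and small frozen pieces were used, so a library holds tumor cells and stroma together. The mice were young adults, and the age of each at collection is not given in the sources used here. No treatment is named, and neither normal gland nor transgene-free mice are compared here. The only grouping in the sample names is Lo (9 tumors) and Hi (11 tumors), whose meaning is not given in the sources used here, and tumors are named by this word and their number.

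Matrix metalloproteinases are zinc-dependent endopeptidases that cut collagens, other matrix proteins and many cell-surface and secreted proteins. Most are secreted as inactive proenzymes, whereas Mmp14 and Mmp15 are held in the plasma membrane, and the tissue inhibitors (Timps) block the active enzymes by binding them with high affinity. In breast tumors these genes are expressed by cancer cells, fibroblasts, endothelial cells and leukocytes, and Mmp14 together with Timp2 forms a complex at the cell surface that activates the proenzyme of Mmp2. RNA levels do not report on activation, secretion or inhibition of the enzymes.

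The promoters of the members fall into a pair of kinds. RefSeq promoter sequence was matched for 8 of the 10 genes (not for Mmp2 and Mmp9), and the 120 bases upstream of the RefSeq start were searched on both strands for the AP-1 motif TGAGTCA, the TATA motif TATAAA and the GC box GGGCGG. This start can differ from that of the gene as counted. The Timp2 window (Chr11, 118355412 to 118355531) lay inside the listed gene, and the windows of Mmp15 and Timp3 ran past the listed starts. Mmp3 and Mmp13 had both an AP-1 and a TATA motif and no GC box, and the other 6 (Mmp11, Mmp14, Mmp15, Timp1, Timp2 and Timp3) had at least 1 GC box and neither of the others. Of 32851 promoters of the same length, 2.30% held the AP-1 motif, 6.34% the TATA motif and 26.5% the GC box. The first base of the AP-1 motif lay 46 bases before the start in Mmp3 and 35 bases before it in Mmp13, and that of the TATA motif 7 and 16 bases before it. A match describes these letters and is not evidence of binding. Sequences of Mmp3 with Timp1 and of Mmp13 with Mmp14, pairs called in 1 direction of a fit on each other's RNA, the second of them through Hi 8, are shown 5' to 3' (GRCm38.p6) with motifs of either strand in capitals.
Mmp3 (chr9:7445702-7445821, plus strand): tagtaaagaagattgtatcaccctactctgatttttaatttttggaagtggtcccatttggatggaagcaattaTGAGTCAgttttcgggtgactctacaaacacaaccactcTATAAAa
Mmp13 (chr9:7272394-7272513, plus strand): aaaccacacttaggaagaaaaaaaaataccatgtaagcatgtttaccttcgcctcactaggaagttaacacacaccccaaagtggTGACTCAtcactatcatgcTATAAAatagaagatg
Mmp14 (chr14:54431478-54431597, plus strand): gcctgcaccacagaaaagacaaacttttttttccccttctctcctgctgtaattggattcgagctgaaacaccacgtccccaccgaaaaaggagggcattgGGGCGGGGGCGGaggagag
Timp1 (chrX:20870046-20870165, plus strand): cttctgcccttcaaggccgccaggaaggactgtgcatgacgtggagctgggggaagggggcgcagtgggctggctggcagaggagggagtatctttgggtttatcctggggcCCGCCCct

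Total gene counts ranged from 38765682 to 65465755 across tumors, with 6.29% to 27.7% of them on a ribosomal RNA locus. Pearson's r between a member's log2 CPM and this share was at most 0.43 in size, and that with the total count at most 0.32. All 10 members were among the 18883 genes that passed the filter on low counts. All 7 luminal epithelial markers were present in every tumor, with a summed level of 1386 to 2352 RPKM (reads per kilobase of listed gene length, scaled to a common library size with TMM factors). The 8 fibroblast markers summed to 77.1 to 290.0 RPKM and the 7 macrophage markers to 169.8 to 281.6 RPKM. Among the neutrophil markers Ly6g and Retnlg did not pass the filter, and among the T cell markers Cd2 did not.

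Membrane-type metalloproteinases were the most abundant members. Mmp15 (ENSMUSG00000031790, Chr8, 95352268 to 95374293, mm10), a membrane-type enzyme, had a mean of 65.5 ± 6.56 RPKM (SD, n = 20), from 52.6 in Lo 8 through a median of 65.8 to 77.7 in Hi 8. Mmp14 (ENSMUSG00000000957, Chr14, 54431604 to 54441258), the membrane-type enzyme that acts on collagen and on the proenzyme of Mmp2, had 58.5 ± 8.88 RPKM, from 45.8 in Lo 3 through 57.2 to 84.4 in Hi 8. Mmp15 was above Mmp14 in 16 of 20 tumors, and their ranges overlapped. Mmp2 (ENSMUSG00000031740, Chr8, 92827328 to 92853417), a gelatinase made largely by stromal cells, followed at 20.9 ± 11.9 RPKM. It ranged from 8.59 in Lo 3 through a median of 18.2 to 54.0 in Lo 8, and 50.8 RPKM in Hi 5 was the second highest value. In the other 18 tumors Mmp2 did not exceed 30.3 RPKM. Mmp14 exceeded Mmp2 in 19 tumors, with Lo 8 as the exception.

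The inhibitors came next in the order of levels. Timp1 (ENSMUSG00000001131, ChrX, 20870166 to 20874735), a secreted inhibitor that is inducible by cytokines, had 16.8 ± 3.99 RPKM, from 9.71 in Lo 3 through 17.3 to 24.6 in Hi 7. Mmp2 was above Timp1 in only 12 of 20 tumors, so these neighbors in the order did not differ beyond their spread. Timp2 (ENSMUSG00000017466, Chr11, 118301069 to 118355740), the inhibitor that takes part in activation of the proenzyme of Mmp2, had 10.6 ± 3.08 RPKM, from 6.21 in Lo 8 through 10.2 to 18.1 in Hi 8. Timp3 (ENSMUSG00000020044, Chr10, 86300372 to 86349506), which stays bound to the matrix, had 9.01 ± 1.78 RPKM, from 6.06 in Lo 3 through 8.70 to 14.3 in Lo 4. Timp1 exceeded Timp2 in 18 tumors and Timp2 exceeded Timp3 in 15, with overlapping ranges in both cases.

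The other 4 enzymes were low. Mmp3 (ENSMUSG00000043613, Chr9, 7445822 to 7455972), stromelysin-1, had 5.05 ± 2.39 RPKM, from 1.94 in Hi 4 through 4.71 to 12.1 in Lo 1, with 7.70 in Hi 6 as the second highest. Mmp13 (ENSMUSG00000050578, Chr9, 7272514 to 7283333), an interstitial collagenase in the same gene cluster, had a median of 1.87 RPKM, from 0.778 in Hi 1 to 17.3 in Hi 8. Mmp11 (ENSMUSG00000000901, Chr10, 75923222 to 75932502), stromelysin-3, which furin activates inside the cell, had 1.82 ± 0.421 RPKM, from 1.06 in Hi 3 through 1.73 to 3.05 in Hi 8. Mmp9 (ENSMUSG00000017737, Chr2, 164940780 to 164955850), the gelatinase stored by neutrophils and made by macrophages, was the lowest at 0.373 ± 0.179 RPKM, from 0.155 in Hi 11 through 0.336 to 0.841 in Hi 8. Its counts were 29 to 155 per tumor, the lowest of the members. Mmp13 exceeded Mmp11 in 11 of 20 tumors, whereas Mmp11 exceeded Mmp9 in all 20.

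**Figure D1:**
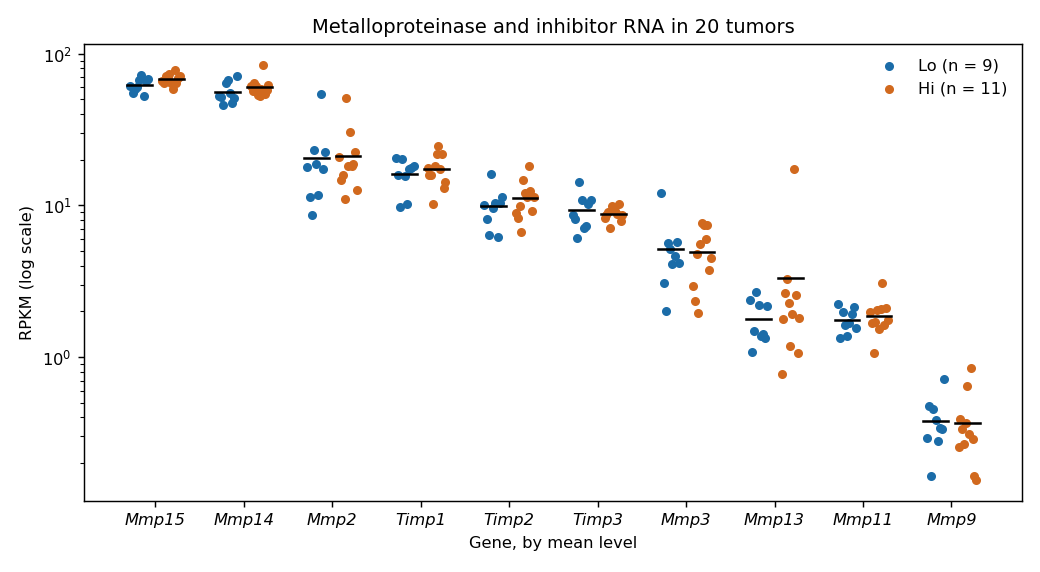
RPKM of each member (log axis) in the 9 Lo (blue) and 11 Hi (orange) tumors, with a point per tumor and a black line at each group's mean. Lo and Hi overlapped for all 10 genes, and single tumors lay far above the others for Mmp2 (54.0 in Lo 8 and 50.8 in Hi 5), Mmp3 (12.1 in Lo 1) and Mmp13 (17.3 in Hi 8).

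RNA of the 7 enzymes exceeded that of the 3 inhibitors in every tumor. The enzymes summed to 154.9 ± 19.4 RPKM (SD, n = 20) and the inhibitors to 36.3 ± 7.47 RPKM. The ratio of inhibitor to enzyme RNA was 0.235 ± 0.0431, from 0.159 in Hi 4 to 0.322 in Lo 4. Mmp14 and Mmp15 together made up 80.5% ± 6.75 of the enzyme sum, from 61.6% in Lo 8 to 88.0% in Lo 3, and Mmp2 made up 7.26% (Lo 3) to 33.3% (Lo 8). The ratio was 0.238 ± 0.0453 (n = 9) in Lo and 0.233 ± 0.0433 (n = 11) in Hi tumors.

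Members differed widely in how much they varied between tumors. The coefficient of variation of CPM (counts scaled to a common library size with TMM factors) was 133.1% for Mmp13, 57.0% for Mmp2, 48.1% for Mmp9 and 47.2% for Mmp3. It was 29.2% for Timp2, 23.8% for Timp1, 23.1% for Mmp11, 19.7% for Timp3, 15.2% for Mmp14 and 10.01% for Mmp15, the most abundant member and the steadiest. The median of all 18883 genes was 17.4%, and 8 members were above it. Mmp13 lay at the 99.5th percentile of all genes and Mmp15 at the 14.8th. Among genes of similar mean level (the same of 10 equal bins), which share the counting error of low counts, Mmp13 lay at the 99.4th, Mmp2 at the 99.3rd and Mmp9 at the 88.5th percentile. On this scale Mmp3 lay at the 96.1st, Timp2 at the 96.0th, Timp3 at the 90.8th and Timp1 at the 85.9th percentile. Mmp14 lay at the 73.6th, Mmp11 at the 61.3rd and Mmp15 at the 29.4th.

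Much of the spread of Mmp13 lay in a single tumor. Hi 8 had 17.3 RPKM from 2407 counts, and the next highest tumor, Hi 4, had 3.28 RPKM, a 5.27-fold gap that 0.0794% of genes equalled or exceeded. Hi 8 was 9.23 times the median. In the other tumors Mmp13 still ran from 0.778 RPKM (Hi 1) to 3.28 RPKM (Hi 4), and its coefficient of variation without Hi 8 was not computed. It was also the highest tumor for Mmp9, Mmp11, Mmp14, Mmp15 and Timp2, and thus for 6 of 10 members, whereas Timp1, Timp3 and Mmp2 were near their medians there (17.3, 8.71 and 18.3 RPKM). The share of all genes that were highest in Hi 8 was not counted, so this is not shown to be particular to the members. Genes of other kinds, among them Spp1, Tgfb3 and Col4a1, were highest there too, whereas Thbs1 and Egr1 were lowest there. Of the 10 other metalloproteinases that passed the filter, 2 were also highest in Hi 8, Mmp10 and Mmp28 (0.547 and 1.54 RPKM against medians of 0.139 and 0.661), and 1, Mmp16, was lowest there (3.15 RPKM against a median of 4.04). Klk6, a secreted serine protease chosen after its values were seen, reached 40.7 RPKM in Hi 8 against a median of 0.285. In the same tumor the score of cycling-cell markers (the mean z-score of their log2 CPM, in units of 1 SD between tumors) was -2.59, the lowest of 20, and that of myoepithelial markers was 1.92. Their part in the level of Mmp13 was not tested beyond the fits on these scores described below. The 885 genes tested on Chr9 had a median log2 difference of -0.0097 from their medians over tumors in Hi 8, against 3.20 for Mmp13.

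Mmp2 was set apart in a pair of tumors. Lo 8 and Hi 5 were 1.57 and 1.48 above the median on the log2 scale, while the 813 genes tested on Chr8 were shifted by a median of 0.035 and -0.0078. Lo 8 had the highest Mmp2 together with the lowest Timp2 and Mmp15, and Hi 5 had the second highest Mmp2 together with 14.7 RPKM of Timp2. The fibroblast score was -1.02 in Lo 8 and 0.89 in Hi 5, the endothelial score 1.10 and 0.64, and the neutrophil score 1.80 and 1.14. Their part in the level of Mmp2 was not tested beyond the fits on these scores described below. Lo 3 was the lowest tumor for Mmp2, Mmp14, Timp1 and Timp3, and it also had the lowest fibroblast (-2.18), endothelial (-1.96) and macrophage (-2.28) scores. In bulk tissue, fewer cells of a type and less RNA per cell cannot be told apart.

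**Figure D2:**
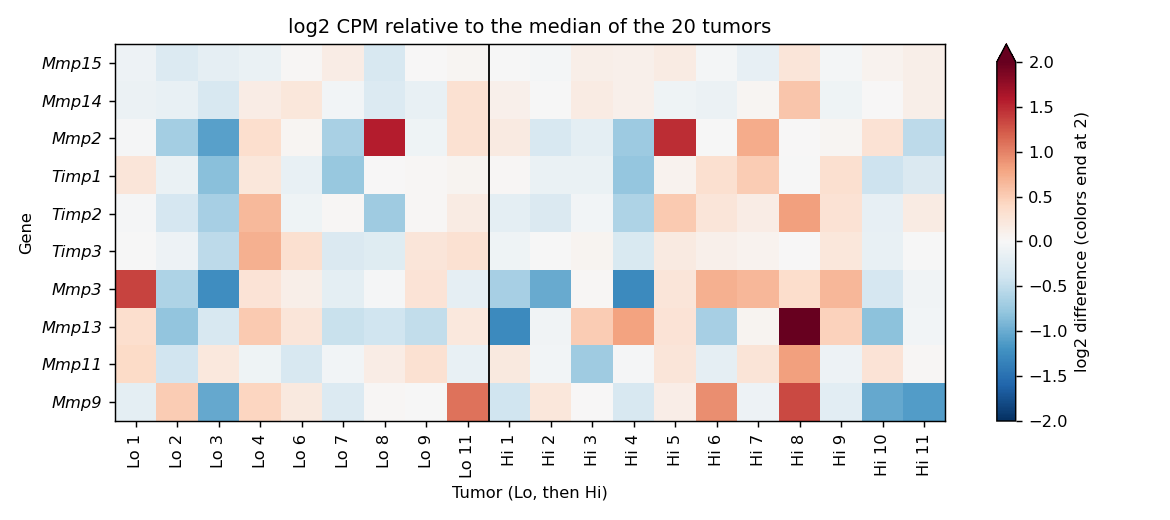
Difference of each tumor's CPM from the median of the 20 tumors on the log2 scale (red higher, blue lower), for the 10 members by row and tumors by column, with a line between Lo and Hi. Mmp13 in Hi 8 is at 3.20, beyond the end of the colors, and Mmp2 in Lo 8 and Hi 5 is at 1.57 and 1.48.

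No member passed the test between Lo and Hi tumors, and the groups overlapped for all 10. The test was edgeR's quasi-likelihood test with Benjamini-Hochberg adjustment over all 18883 genes, and it called 0% of genes. At an unadjusted p under 0.05 there were 1045 genes, and DESeq2 called 1 gene, which was no member. Mmp13 had a median of 1.49 RPKM (1.09 to 2.68) in Lo and of 1.94 RPKM (0.778 to 17.3) in Hi, with a log2 difference of Hi minus Lo of 0.89 (SE 0.447, adjusted p = 0.910). Without Hi 8 this difference was 0.11 (adjusted p = 0.999), and with DESeq2, which replaces outlying counts, it was 0.12 (adjusted p = 0.9999). Mmp15 had a median of 61.0 RPKM (52.6 to 72.7) in Lo and of 69.0 RPKM (58.8 to 77.7) in Hi, with a log2 difference of 0.13 (SE 0.0643, adjusted p = 0.895). For the other 8 members the log2 difference lay between -0.08 (Timp3) and 0.18 (Timp2), each with an adjusted p of 0.9996. Each tumor came from a separate mouse. The spread thus holds differences between animals together with those between tumors and tissue pieces, which cannot be told apart.

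Marker RNA of stroma differed between tumor pieces, and each member was therefore set against scores of 10 marker lists. The slope of all genes on a score was tested with edgeR's quasi-likelihood test, and 8 of 100 tests on members passed an adjusted p under 0.05 (adjusted over all genes of a list). These calls concerned Timp1, Timp2, Timp3, Mmp3 and Mmp13. With edgeR no call was made for Mmp2, Mmp9, Mmp11, Mmp14 or Mmp15 with any of the 10 lists, whereas DESeq2 also called Mmp2 with the endothelial score (adjusted p = 0.0220) and Mmp9 with the fibroblast score (adjusted p = 0.0176). The lists with no member called by edgeR were luminal epithelium (4.99% of all genes called), T cells (0.445%), pericytes and smooth muscle (0.0953%), adipocytes (0.0953%), myoepithelium (0.09%) and neutrophils (0.0053%). Mmp13 with the myoepithelial score had a slope of 0.72 and an adjusted p of 0.0541, and DESeq2 called it (adjusted p = 0.0304). Timp2 with the luminal score had a slope of 0.25 and an adjusted p of 0.0536 (r = 0.597, rho = 0.687), and DESeq2 called it (adjusted p = 0.01745). The stromal scores varied together (r = 0.59 between fibroblasts and macrophages and 0.60 between fibroblasts and endothelial cells). The macrophage score varied most closely with the luminal score (r = 0.654, rho = 0.759). The lists are thus not independent of one another, and a relation to 1 of these scores cannot be told apart from one to another.

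Timp3 rose with the fibroblast score. It was 6.06 RPKM in Lo 3, the tumor with the lowest score, and 14.3 RPKM in Lo 4, the tumor with the highest. The log2 slope was 0.21 per SD of the score (SE 0.0393, adjusted p = 0.00332 from edgeR), with Pearson's r of 0.776 and Spearman's rho of 0.708 (permutation p = 8e-05 and 0.00067). Within Lo tumors r was 0.899 and within Hi tumors 0.598, and it was 0.561 without Lo 3 and Lo 4, the 2 tumors farthest from the median score. The call held without each of the other 19 tumors in turn and was lost without Lo 4 (adjusted p = 0.088). Timp2 rose with the same score, with a slope of 0.26 (SE 0.0686, adjusted p = 0.0497, r = 0.645, rho = 0.614, permutation p = 0.00233 and 0.00501, r within Lo 0.810 and within Hi 0.474). This second call was made without Lo 2, Hi 3, Hi 8 or Hi 11 and lost without each of the other 16 tumors (largest adjusted p = 0.271). The 2 members called stand against 1.97% of all genes.

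The macrophage score went with 4 members, against 1.91% of all genes. Timp2 had a slope of 0.30 (SE 0.0662, adjusted p = 0.0252), Timp3 of 0.19 (SE 0.0467, adjusted p = 0.0405), Mmp3 of 0.46 (SE 0.117, adjusted p = 0.0438) and Timp1 of 0.25 (SE 0.0642, adjusted p = 0.0485). Pearson's r was 0.717, 0.672, 0.664 and 0.671 in the same order, and rho was 0.749, 0.599, 0.547 and 0.597 (permutation p of r = 0.00024, 0.00138, 0.00142 and 0.00118, and of rho = 0.00013, 0.00643, 0.01419 and 0.00623). Every one of these r stayed positive within Lo (0.690 to 0.809) and within Hi (0.643 to 0.720). The values rested in part on Lo 3 and Hi 4, the 2 tumors farthest from the median score, without which r was 0.571, 0.473, 0.426 and 0.399 and none was called. Timp2 lost its call without Lo 3, Lo 4 or Hi 4, and Timp3 without Lo 3, Lo 4, Lo 8, Lo 11, Hi 4, Hi 5 or Hi 10. Mmp3 lost it without Lo 1, Lo 3, Lo 4, Lo 6, Lo 7, Lo 8, Hi 4, Hi 5, Hi 6, Hi 8 or Hi 10, and Timp1 kept it only without Lo 7, Hi 7 or Hi 11.

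A single member was called with the endothelial score, against 0.953% of all genes. Timp3 had a slope of 0.19 (SE 0.0443, adjusted p = 0.0354, r = 0.682, rho = 0.629, permutation p = 0.00072 and 0.00345), with r of 0.749 within Lo, 0.572 within Hi and 0.456 without Lo 3 and Lo 4. This call was lost without Lo 3, Lo 4, Lo 6, Lo 7, Lo 9, Hi 4, Hi 5, Hi 9 or Hi 10, and also with Lo/Hi as covariate (adjusted p = 0.0524) or without a filter on low counts (adjusted p = 0.0527). Mmp2 had a slope in the same direction that did not pass (adjusted p = 0.0800, r = 0.622, rho = 0.654, permutation p = 0.00254 and 0.002, r within Lo 0.754, within Hi 0.484 and 0.556 without Lo 3 and Lo 4). Mmp13 fell with the score of cycling cells, by 0.71 per SD on the log2 scale (SE 0.115, adjusted p = 0.00081), as 1.21% of all genes changed with that score. This relation rested on Hi 8, since without it the slope was -0.23 (adjusted p = 0.651), and Spearman's rho over 20 tumors was -0.344 (permutation p = 0.139) against an r of -0.663 (permutation p = 0.00302). For Mmp9 and the neutrophil score r was 0.085 and rho 0.090 (permutation p = 0.722 and 0.706). Both sides were low, with 29 to 155 counts of Mmp9 and 4.69 to 14.2 RPKM summed over the 7 neutrophil markers, so a relation could be missed. For Mmp2 and that score r was 0.547 and rho 0.549 (permutation p = 0.0126 and 0.0139). The slope of 0.41 (SE 0.110) did not pass (adjusted p = 0.226 from edgeR).

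**Figure D3:**
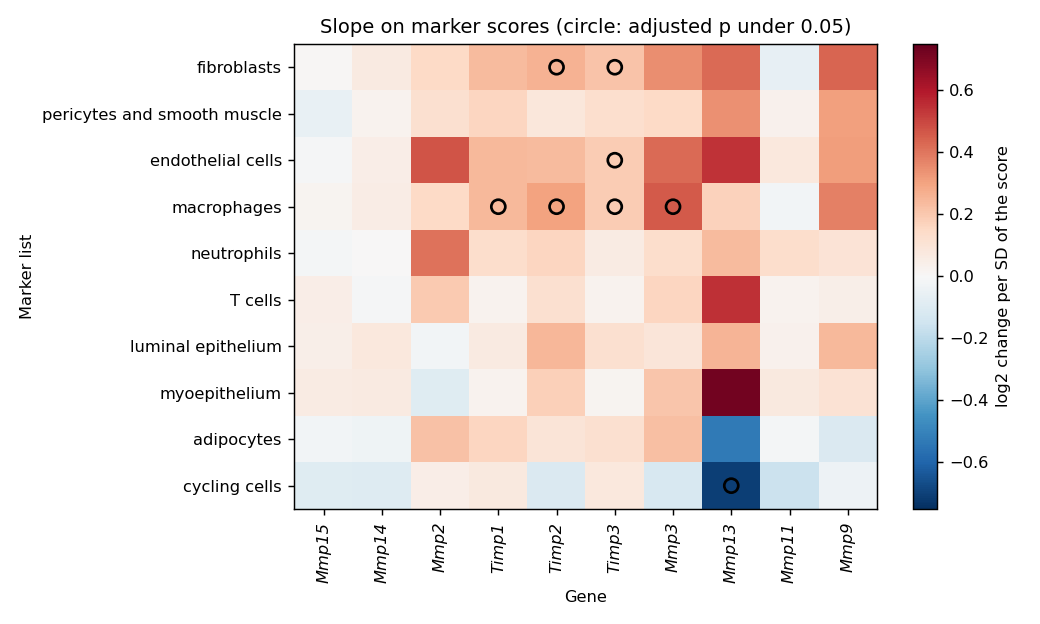
Slope of each member (columns, by mean level) on the score of each of 10 marker lists (rows), as the log2 change per SD of the score (red positive, blue negative), with a circle where the adjusted p was under 0.05. The 8 circles lie on Timp1, Timp2, Timp3, Mmp3 and Mmp13, and the circle of Mmp13 with cycling cells rests on Hi 8.

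**Figure D4:**
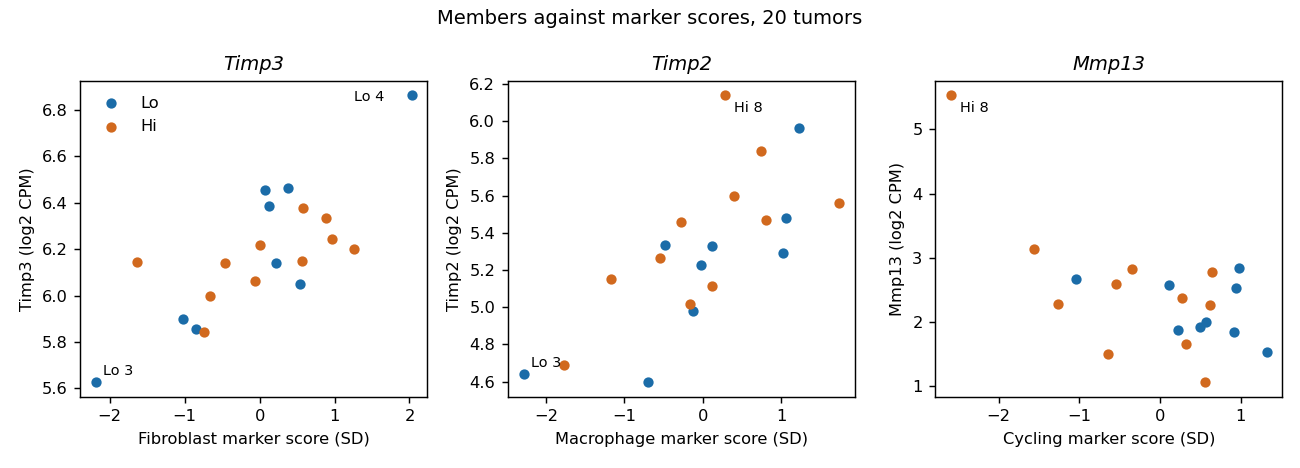
log2 CPM of Timp3 against the fibroblast score, of Timp2 against the macrophage score and of Mmp13 against the score of cycling cells, in SD, with a point per tumor (Lo blue, Hi orange). Lo 3 and Lo 4 lie at the ends of the first relation (r = 0.776), and Hi 8 lies alone in the last (r = -0.663 with it and -0.365 without it).

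Members were also set against one another. Of 45 pairs, 40 had a positive r of log2 CPM, with a median r of 0.30. Timp2 and Timp3 were the only pair past the threshold in both directions of the fit (adjusted p = 0.0286 and 0.0384 from edgeR), where log2 CPM of Timp2 called 1.73% and that of Timp3 1.42% of all genes. Their r was 0.696 and rho 0.722 (permutation p = 0.00062 and 0.00041), with 0.845 within Lo, 0.697 within Hi, 0.799 without Hi 8 and Lo 8, and 0.802 without Hi 8 alone. Hi 8, with the highest Timp2 and a Timp3 near the median, was the tumor that lowered this r most, and the lowest r with 1 tumor left out was 0.633. The fit of Timp2 on Timp3 was no longer called without Lo 4 and Lo 3, the 2 tumors farthest from the median of Timp3 (adjusted p = 0.540), or without a filter on low counts (adjusted p = 0.0544).

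In 3 other pairs a single direction of the fit passed. The fits on the other members called 0.275% (Mmp13), 0.122% (Mmp2), 0.106% (Mmp15), 0.0053% (Mmp9), 0.0053% (Mmp11) and 0% (Mmp3) of all genes and no member. Mmp3 rose with log2 CPM of Timp1 (adjusted p = 0.0261, against 0.222% of all genes), whereas the reverse fit had an adjusted p of 0.112. This pair had the highest r of the 45, 0.753, with a rho of 0.774 (permutation p = 0.00011 and 0.00017), r of 0.719 within Lo and 0.806 within Hi, and 0.705 without Lo 1 and Hi 4. The call was lost without Lo 3 and Hi 4, the 2 tumors farthest from the median of Timp1 (adjusted p = 0.956). Mmp13 rose with Mmp14 (adjusted p = 0.0031, against 1.03% of all genes, reverse 0.106) and with Timp2 (adjusted p = 0.0361, reverse 0.241). Without Hi 8 neither was called, and r fell from 0.670 to 0.369 for Mmp14 and from 0.521 to 0.264 for Timp2. Mmp14 and Mmp15, the membrane-type enzymes, had r = 0.617 and rho = 0.538 (permutation p = 0.00381 and 0.0161, adjusted p = 0.137 and 0.162), with 0.556 within Lo, 0.596 within Hi and 0.457 without Hi 8 and Lo 3. Mmp2 had r = -0.01 and rho = 0.192 with its activating partner Mmp14 (permutation p = 0.976 and 0.416). This r ran from -0.189 to 0.211 with 1 tumor left out (0.211 without Lo 8), and was 0.405 without Lo 8 and Hi 5. With Timp2 the r of Mmp2 was 0.262 (rho 0.367, permutation p = 0.263 and 0.113), which became 0.626 without Lo 8. The highest r of Mmp2 with a member was 0.585, with Timp1 (rho 0.606, permutation p = 0.00692 and 0.00555). It was 0.777 without Lo 8 and Hi 5, and neither direction of this fit passed (adjusted p = 0.231 and 0.211 from edgeR). Mmp3 and Mmp13, neighbors on Chr9 with the AP-1 and TATA motifs shown above, had r = 0.232 and rho = 0.314 (permutation p = 0.327 and 0.177).

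**Figure D5:**
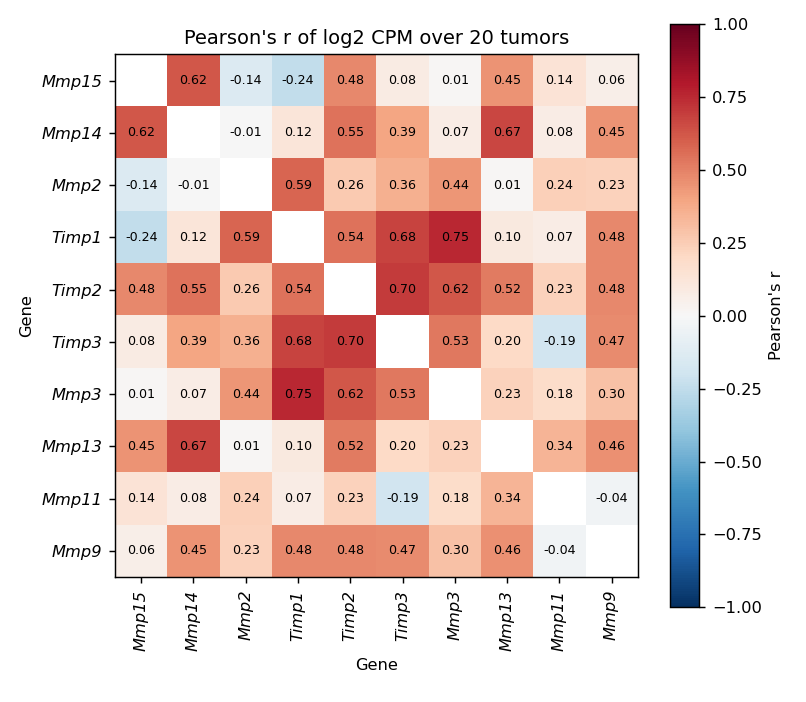
Pearson's r of log2 CPM over the 20 tumors for each pair of members, printed in each square (red positive, blue negative). The highest values join Mmp3 with Timp1 (0.75) and Timp2 with Timp3 (0.70), and 40 of 45 pairs are positive.

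The genes whose log2 CPM was most like that of a member were ranked by Pearson's r over the 20 tumors among 15382 genes, as a description. Thy1, a surface glycoprotein of fibroblasts and T cells, came first for both Mmp3 (r = 0.826) and Timp1 (r = 0.867), and Serpinf1, a secreted antiangiogenic serpin, was among the first 3 of both (r = 0.769 and 0.844). Tgfbi, a matrix protein induced by TGF-beta, was second for Mmp3 (r = 0.769), and Rcn3, a calcium-binding protein of the endoplasmic reticulum, was ranked 3 for Timp1 (r = 0.825). Bgn, the proteoglycan biglycan, followed Rgl1 (r = 0.892) in the ranking for Timp3 (r = 0.880). Cebpa, a transcription factor of differentiating epithelium and adipocytes, came first for Timp2 (r = 0.874). Ccnd1, which encodes cyclin D1, came first for Mmp2 with r of 0.832 over all tumors, 0.874 within Lo, 0.774 within Hi and 0.712 without the 2 farthest tumors. Prkd1, a serine/threonine kinase, came first for Mmp14 (r = 0.892), Hhipl2 for Mmp15 (r = 0.825), Adra2a, an adrenergic receptor, for Mmp9 (r = 0.804), Gm26790 for Mmp11 (r = 0.766) and Car5b, a mitochondrial carbonic anhydrase, for Mmp13 (r = 0.812). For Mmp13, Klk8, ranked after Car5b and Ppp1r2, had an r of 0.801 with a rho of 0.420, and 0.360 without the 2 farthest tumors.

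The gene most like Timp3 overlaps it. Syn3, a synapsin gene of the opposite strand, had r = 0.927 with Timp3 (0.939 within Lo and 0.933 within Hi). Timp3 lies within Syn3, and 1733 of the 8144 exon bases of Timp3 in GENCODE M21 are also exon bases of Syn3. Between 1216 and 2944 counts were given to Syn3 per tumor, which was 0.450 to 0.599 of the Timp3 count of the same tumor. The strand setting of the counting is not given in the sources used here, so reads of Timp3 and Syn3 cannot be told apart where they share exons, and the level of Timp3 is uncertain to that extent. Timp1 lies within Syn1 without shared exon bases, and Syn1 had only 25 to 116 counts. Mmp11 shares 155 of 2778 exon bases with Chchd10 on the opposite strand, and Timp2 shares none with Cep295nl, which lies within it.

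Of 99 other genes of the protease system (other metalloproteinases and inhibitors, activators, partners, ADAM and ADAMTS relatives, substrates, transcription factors and inducing cytokines), 88 passed the filter. None passed the test between Lo and Hi. With the fibroblast score 13 rose and 1 fell, or 15.9% against 1.97% of all genes, and 6 of the 13 were among 12 matrix substrates. These included Postn (log2 slope 0.38, SE 0.0395), Col5a1 (0.44, SE 0.0473), Sparc (0.33, SE 0.0439) and Bgn (0.39, SE 0.0571), with adjusted p from 4e-06 to 0.00032 (edgeR). The score is itself built on matrix genes such as Col1a1, Col3a1 and Dcn, so the share among matrix substrates is not independent of it. Among enzymes Mmp19 (slope 0.18, adjusted p = 0.00289) and Mmp23 (0.26, adjusted p = 0.0135), the collagen propeptide processing enzyme Adamts2 (0.26, adjusted p = 0.0023) and Adam19 (0.18, adjusted p = 0.0268) rose, and Adam8 fell by 0.22 (adjusted p = 0.0407). Plat, the tissue plasminogen activator (0.35, adjusted p = 0.00057), the matricellular Thbs2 (0.39, adjusted p = 0.00015) and the clearance receptor Lrp1 (0.14, adjusted p = 0.0129) rose too. The endothelial score went with 9 genes (10.2% against 0.953% of all genes) and the macrophage score with 4 (Bgn, Sparc, Col5a1 and Tnc, 4.55% against 1.91%), all higher. The luminal score went with 5 (St14, Plau, Ets2, Tgfb3 and Tgfb2), a share of 5.68% that was near the 4.99% of all genes.

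Of 16 other metalloproteinases 10 passed the filter. The highest were Mmp16 (4.21 ± 0.699 RPKM, SD, n = 20), Mmp19 (3.19 ± 0.515) and Mmp24 (3.15 ± 0.461), all below the 3 inhibitors. Mmp23 had 1.35 ± 0.305, Mmp28 0.726 ± 0.226 and Mmp12, the macrophage elastase, 0.695 ± 0.289 RPKM. Mmp17, Mmp10, Mmp1a and Mmp25 had means of 0.273, 0.161, 0.148 and 0.0805 RPKM. Mmp20, the enamel metalloproteinase, had a count of 0 in all 20 tumors, which allows up to 3 counts in a tumor and covers counting error only. Of other inhibitors, A2m (alpha-2-macroglobulin) had 11.1 ± 2.95, the membrane-anchored Reck 2.69 ± 0.486 and Tfpi2 1.19 ± 0.342 RPKM, and Timp4 did not pass the filter. None of the 13 genes that passed was called with Lo or Hi, and with the fibroblast score none of the 3 inhibitors was.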

How the data were processed

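RNA from 20 tumors was sequenced as paired ends by the authors, who deposited raw counts of reads per gene, with gene positions and lengths. Per the submitters' processing notes, TopHat2 2.0.12 and featureCounts 1.4.4 were used, with mm10 as build in the study's methods. The strand setting and annotation release are not given in the sources used here. Columns were matched to tumors by sample title. Members and lists were chosen with earlier results of these data known. Counts were scaled with TMM and filtered with filterByExpr (minimum count 10), and Lo against Hi or a slope on a score was tested with edgeR 4.0.16 (quasi-likelihood) in R 4.3.3, with Benjamini-Hochberg adjustment over all genes at 0.05. Log2 CPM used a prior count of 2. RPKM used listed lengths. Permutation tests were two-sided with 100000 draws. Scripts were tested on simulated data. All 68 markers and 99 pathway genes were matched, 1 by identifier (Adgre1). Named genes were the members, the 3 genes of at least 1 CPM most like each, called genes of the pathway lists and, of each list, up to 4 with the smallest adjusted p in the fibroblast fit. Alternatives included RLE factors, no filter, DESeq2 1.42.0, and leaving out tumors. Python 3.11.15 with numpy 2.4.6, pandas 2.3.3 and scipy 1.17.1 was used for other values. Reads were not tagged with molecular identifiers, so limits from counts leave out amplification error.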

Additional observations from a re-analysis of the deposited data

Results flagged for a closer look

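Within the 9 Lo tumors a single value lay far from the others in 2 genes by Dixon's test. Mmp2 was at 54.0 RPKM in Lo 8, against a Lo median of 17.8 RPKM. Mmp3 was at 12.1 RPKM in Lo 1, against a Lo median of 4.65 RPKM. This check covered 11 sets of values (10 members and the ratio of inhibitor to enzyme RNA), of which chance flags about 0.55 where values are normally distributed. That was not tested for these values, so the 2 flags are not shown to be an excess. As set up here it did not cover the 11 Hi tumors, among them Hi 8 with its high Mmp13.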

How the results depend on the processing

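Between Lo and Hi the count of genes called was 0, and it was 1 without a filter on low counts and 1 with DESeq2. The block by title number gave 0 genes over 18 tumors (868 at an unadjusted p under 0.05, against 946 for the same tumors without the block). Between tumors of the same number the r of expression was -0.418 to 0.208 in 9 pairs, which does not settle whether the numbers pair anything. No label ties them. Members had 8 calls with marker lists. With RLE size factors there were 4, all among the 8. Without a filter, with Lo/Hi as covariate and with adjustment over all 10 fits there were 5 each, of which 4 were among the 8. Without Hi 8 there were 5, all among the 8, and without the 2 farthest tumors 0. With DESeq2 there were 15, the 8 and 7 more (Mmp2, Mmp3 and Timp1 with the endothelial, Mmp9 and Timp1 with the fibroblast, Timp2 with the luminal and Mmp13 with the myoepithelial score). With the fibroblast score 2 members were called. This became 1 with RLE, without a filter, without the ribosomal RNA locus, with the covariate and over all 10 fits, 4 with DESeq2, 0 without the 2 farthest tumors and 0 to 3 with 1 tumor left out. With the macrophage score 4 members became 1 with RLE and over all 10 fits, 2 without a filter and with the covariate, 0 without the 2 farthest tumors and 0 to 4 with 1 tumor left out. With the endothelial score 1 member (Timp3) became 0 without a filter and without the 2 farthest tumors, stayed 1 with the covariate through Timp1 in place of Timp3, became 4 with DESeq2 and 0 to 2 with 1 tumor left out, with the luminal score 0 became 1 with DESeq2 and 0 to 1 with 1 tumor left out, and with cycling cells 1 became 0 without the 2 farthest tumors and 0 without Hi 8. Of pairs, 1 passed in both directions, and 0 did without a filter or without the 2 farthest tumors. In either direction 4 passed. Without the 2 farthest tumors 2 did, and of the 4 only Timp2 with Timp3 was among them, through the fit of Timp3 on Timp2. Without Hi 8 there were 2, Mmp3 with Timp1 and Timp2 with Timp3. Fewer tumors weaken a test, and other causes were not tested. No called estimate changed sign in these alternatives. Mean RPKM of Mmp14 and Mmp15 moved to 69.5 and 78.0 with totals that leave out the ribosomal RNA locus. Leaving out single tumors and Hi 8 was chosen after seeing the data.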
